A study of Mus musculus with 10 samples.

Results

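Notch receptors, their ligand Jag1, the nuclear partner Rbpj and direct Notch targets were followed in aortic smooth muscle cells of mouse embryos that either lacked or carried elastin. The genes were chosen by symbol: the receptors Notch1, Notch2 and Notch3, the ligand Jag1, the DNA-binding protein Rbpj, and the targets Hes1, Hey1, Hey2, Heyl and Nrarp. All 10 were found among the 28165 genes of the deposited table, and all 10 passed the filter on low counts. Bulk mRNA sequencing was done on 5 Eln-/- and 5 Eln+/+ libraries, each of aortic cells from embryos at embryonic day 15.5. Eln+/- parents were intercrossed, and the embryos of both genotypes carried the Acta2-GFP reporter and received no treatment. The cells were sorted as positive for GFP and negative for the endothelial surface protein CD31 and for the dye DAPI, which enters dead cells. The sort therefore selected for activity of the Acta2 promoter, and no promoter limits the loss of Eln to one cell type. The labels do not name the Eln allele, and they do not say how many embryos made a library or whether replicates were separate embryos, so the p-values reflect library-to-library spread alone, part of which may be technical.

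Notch is a signal between touching cells. A ligand of the Jagged or Delta family on one cell binds a Notch receptor on its neighbour, the receptor is cleaved, and its intracellular part moves to the nucleus, where it joins Rbpj and switches on genes such as those of the Hes and Hey repressors. In the vessel wall Jag1 is the main ligand of smooth muscle and Notch3 the receptor best known from smooth muscle and pericytes. Jag1 and Notch signalling are known to promote the smooth muscle program in the developing aorta.

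Total counts ranged from 28367714 to 56371424 in Eln-/- and from 26951681 to 63866346 in Eln+/+ libraries. Levels are given as CPM, a gene's count scaled by the effective size of its library. Eln itself spanned 0 to 0.493 CPM in Eln-/-, against 159 to 1214 CPM in Eln+/+ libraries, with no overlap, as the labels have it, and even so its adjusted p was 0.152 with edgeR, and under 0.05 in 5 of 19 alternatives. Eln-/- replicates 4 and 5 and Eln+/+ replicate 1 had the fewest genes with at least 1 count (15595, 15925 and 15089), where the remaining 7 libraries had 18157 to 22951. Smooth muscle markers (8 genes) summed to 1204 to 3991 CPM in Eln-/- and 1022 to 2502 CPM in Eln+/+ libraries. Acta2 itself spanned 601 to 1742 CPM in Eln-/- libraries, against 473 to 1195 CPM in Eln+/+. The defining endothelial markers Pecam1 and Cdh5 were at most at 3.41 CPM in Eln-/-, against 7.70 CPM in Eln+/+ libraries, and the sum of 11 endothelial markers was 26.0 to 53.1 CPM in Eln-/-, against 15.0 to 87.8 CPM in Eln+/+. These markers differed in direction. Most had the higher mean in Eln+/+ (Pecam1, Cdh5, Tek, Tie1, Emcn, Cldn5, Sox17 and Sox18), while Kdr, Egfl7 and Plvap had it in Eln-/-. In Eln+/+ replicate 4, the library with the highest sum, Cldn5 was the largest part at 31.6 CPM. Kdr reached 5.23 CPM in Eln-/-, against 0.198 CPM in Eln+/+, while Tek averaged 7.26 CPM in Eln-/-, against 17.7 CPM in Eln+/+. Egfl7 made up most of the sum in Eln-/- replicates 4 and 5, at 30.0 and 52.4 CPM. Fibroblast markers (6 genes) summed to 515 to 2400 CPM in Eln-/- and 1207 to 3958 CPM in Eln+/+ libraries, and pericyte markers (5 genes) to 56.9 to 336 CPM in Eln-/-, against 180 to 370 CPM in Eln+/+. Erythroid markers (5 genes) summed to 22.3 to 5138 CPM in Eln-/-, against 330 to 18862 CPM in Eln+/+, with the highest value in Eln+/+ replicate 1. Cardiomyocyte markers reached 57.6 CPM in Eln-/- and 190 CPM in Eln+/+ libraries, while the sums of glial and leukocyte markers stayed at or below 7.10 CPM in Eln-/-, against 8.63 CPM in Eln+/+, with the glial Sox10 and the leukocyte Ptprc at 0 in 7 of 10 libraries each. The 10 immediate early genes, which cells switch on within minutes of stimulation or dissociation, had the highest summed level of each genotype in Eln-/- replicate 1 (17390 CPM; other Eln-/- libraries 381 to 2751) and Eln+/+ replicate 2 (6691 CPM; other Eln+/+ libraries 479 to 1001).

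Between genes, levels were compared as CPM per kilobase of annotated exon. Hes1 had the highest level, at 66.7 ± 27.3 CPM per kilobase in Eln-/- and 34.6 ± 9.22 CPM per kilobase in Eln+/+ libraries (SD, n = 5 each). On the mean log2 CPM per kilobase over all 10 libraries it was followed by Heyl, Hey1, Jag1, Hey2, Nrarp, Rbpj, Notch3, Notch2 and Notch1. In this order the targets and the ligand came before the receptors. Notch1 was last, at 0.414 ± 0.359 CPM per kilobase in Eln-/- and 0.169 ± 0.175 CPM per kilobase in Eln+/+ libraries. Of the 9 pairs of neighbours in this order, 3 differed in a two-sided exact sign-flip permutation test within libraries, adjusted by Benjamini-Hochberg over the 9. Hes1 exceeded Heyl in 9 of 10 libraries, by 1.70 ± 1.53 on the log2 scale (SD, exact permutation adjusted p = 0.0176). Hey1 lay between Hes1 and Heyl without Eln-/- replicate 1 or with the longest transcript as length, so that pair was not tested there. Jag1 exceeded Hey2 in 9 of 10 libraries, by 1.26 ± 1.45 (exact permutation adjusted p = 0.0293). Without Eln+/+ replicate 1 or 3, Nrarp lay between these genes, so the pair was not tested there. The call was lost without Eln-/- replicate 1, 2 or 4 and without Eln+/+ replicate 2 or 4. It was also lost with the length of the longest transcript in place of all exon bases. That length also put Hey1 before Heyl and Rbpj before Nrarp. Notch2 exceeded Notch1 in 10 of 10 libraries, by 3.14 ± 2.04 (exact permutation adjusted p = 0.0176). Notch3 lay between Notch2 and Notch1 without Eln-/- replicate 3 or 5, so that pair was not tested there. With the 3 libraries of lowest gene number left out, 0 of the 9 pairs passed, and the 7 libraries then allow no p under 0.0156. Heyl and Hey1, Hey1 and Jag1, Hey2 and Nrarp, Nrarp and Rbpj, Rbpj and Notch3, and Notch3 and Notch2 did not differ beyond their spread (exact permutation adjusted p = 0.628 to 0.752). Nrarp held rank 4 of the 10 on the mean log2 level in Eln-/- libraries and rank 9 in Eln+/+ libraries, the widest move of any of these genes on that scale, and that difference in rank was not tested. The Eln+/+ rank rests partly on 0 counts in replicate 1 and 11 counts in replicate 3. On mean CPM per kilobase in Eln+/+, Nrarp (2.71) lay above Notch2 (1.72) and Notch3 (1.22), so its move was smaller.

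**Figure D1:**
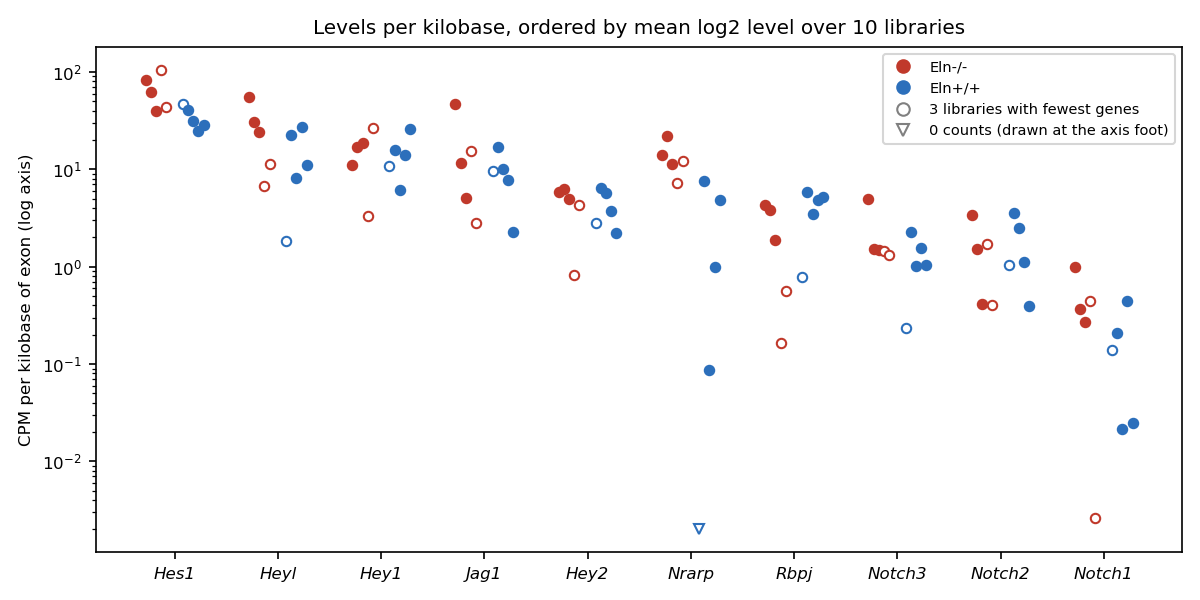
Level of each Notch pathway gene in each library, as CPM per kilobase of exon on a log axis, in the order of the mean log2 level, with Eln-/- in red left of Eln+/+ in blue. Open circles mark the 3 libraries that had the fewest genes detected, and the triangle is the library in which Nrarp had 0 counts. Hes1 stands highest and Notch1 lowest, and the Nrarp points of Eln-/- lie between 7.20 and 21.9 while those of Eln+/+ reach down to 0.

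Among the receptors, Notch3 had similar CPM in 4 of the 5 Eln-/- libraries and a much higher value in replicate 1. Notch3 (chromosome 17, 32120820 to 32166852, minus strand, mm10) was at 40.4, 12.3, 12.2, 11.8 and 10.6 CPM in Eln-/- replicates 1 to 5, against 1.92, 18.2, 8.16, 12.6 and 8.31 CPM in Eln+/+ replicates 1 to 5. Only Eln-/- replicate 1 lay above every Eln+/+ library, and all 5 Eln-/- libraries lay above the Eln+/+ median of 8.31 CPM. The count of 5 and the likeness of the 4 lower values depend on the scaling of the libraries. Per total count, Eln-/- replicates 4 (162 of 28367714) and 5 (282 of 31366586) lay below the median library of Eln+/+, replicate 5 (373 of 39646293). Notch3 had a log2 fold change, Eln-/- over Eln+/+, of 0.82 (SE 0.71), with an adjusted p of 1.00 in edgeR's quasi-likelihood test with Benjamini-Hochberg adjustment over 15718 genes. It was 0.20 with limma-voom and sample quality weights, 0.24 without Eln-/- replicate 1, the library with the highest immediate early sum, and 0.57 without Eln+/+ replicate 1, whose Notch3 value rests on 29 counts. The part of the immediate early genes and of library complexity in the result was not tested. Exons of Notch3 share 6.03% of their bases with the antisense gene Gm17276, and since the strand setting of the counting is not known, reads there cannot be assigned.

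Notch2, a widely expressed receptor (chromosome 3, 98013527 to 98150361, plus strand), had overlapping values in the genotypes. It was at 36.5, 16.4, 4.45, 18.5 and 4.37 CPM in Eln-/- replicates 1 to 5, against 11.3, 38.1, 26.6, 12.2 and 4.26 CPM in Eln+/+ replicates 1 to 5. No Eln-/- library lay above the highest Eln+/+ library. Notch2 had a log2 fold change of -0.20 (SE 0.78, edgeR adjusted p = 1.00), and it was 0.24 without Eln+/+ replicate 2, 0.030 without Eln-/- replicate 3 and 0.034 without Eln-/- replicate 5. Exons of Notch2 share 5.02% of their bases with Gm42820 on the same strand.

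Notch1, the receptor best known from endothelium and blood cells (chromosome 2, 26457903 to 26516663, minus strand), was the least abundant gene of the set. Its values were 14.0, 5.21, 3.84, 6.39 and 0.0377 CPM in Eln-/- replicates 1 to 5, against 1.98, 2.98, 0.304, 6.38 and 0.356 CPM in Eln+/+ replicates 1 to 5. The lowest Eln-/- value was 1 count, and the lowest Eln+/+ value 15 counts. Except for the Eln-/- library with 1 count, each Eln-/- value lay above at least 4 of the 5 Eln+/+ values in CPM, which depends on the scaling. Per total count, Eln-/- replicate 4 (88 of 28367714) lay below Eln+/+ replicates 2 (260 of 63866346) and 4 (403 of 52279186). The groups overlapped (log2 fold change of Notch1 1.29, SE 1.25, edgeR adjusted p = 1.00). It was 0.68 without Eln-/- replicate 1 and 2.07 without Eln+/+ replicate 4, the libraries with the highest Notch1 value of each genotype. The endothelial marker sum was 35.8 CPM in Eln-/- replicate 1 and 87.8 CPM in Eln+/+ replicate 4, where it was the highest of all libraries. Of the 11 endothelial markers 4 were tested, 2 of them with a positive log2 fold change (median -0.61), and their part in the Notch1 values was not tested. Exons of Notch1 share 7.5% of their bases with 0610009E02Rik and 2.91% with Gm13568, both on the other strand.

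The ligand Jag1 (chromosome 2, 137081456 to 137116644, minus strand) varied 20.6-fold between the highest and the lowest library, and the 2 genotypes overlapped. It was at 272, 67.2, 30.0, 90.6 and 16.5 CPM in Eln-/- replicates 1 to 5, against 55.7, 98.0, 58.7, 45.7 and 13.2 CPM in Eln+/+ replicates 1 to 5. Eln-/- libraries averaged 95.3 ± 103 CPM, against 54.3 ± 30.4 CPM for Eln+/+ (SD, n = 5 each), and edgeR gave Jag1 a log2 fold change of 0.81 (SE 0.74, adjusted p = 1.00). Without Eln-/- replicate 1 it was -0.10, and the highest library of each genotype was also the one with that genotype's highest immediate early sum. The part of that sum in the Jag1 values was not tested. In bulk samples, fewer cells that express a gene and less of its RNA per cell cannot be told apart.

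Rbpj, through which the cleaved receptors reach DNA (chromosome 5, 53466152 to 53657362, plus strand), was the only gene of the set with no Eln-/- library above the Eln+/+ median. It was at 54.6, 48.4, 23.7, 2.11 and 7.24 CPM in Eln-/- replicates 1 to 5, against 10.1, 74.5, 44.7, 62.3 and 66.4 CPM in Eln+/+ replicates 1 to 5. The lowest 3 values, 2.11, 7.24 and 10.1 CPM, belonged to the 3 libraries that had the fewest genes detected, 2 of them Eln-/- and 1 Eln+/+. Without those libraries Rbpj was at 23.7 to 54.6 CPM in Eln-/- and at 44.7 to 74.5 CPM in Eln+/+ libraries. For Rbpj the log2 fold change was -0.92 (SE 0.81, edgeR adjusted p = 1.00), -0.53 without the 3 libraries and -1.34 without Eln-/- replicate 1, and it was negative under each of the 19 alternatives.

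Among the targets, Hes1 and Nrarp had the clearest separation of the genotypes, although neither passed the threshold. Hes1, a transcriptional repressor of the basic helix-loop-helix family (chromosome 16, 30064384 to 30067796, plus strand), was at 168, 127, 80.5, 213 and 90.1 CPM in Eln-/- replicates 1 to 5, against 96.6, 82.8, 64.1, 50.9 and 58.2 CPM in Eln+/+ replicates 1 to 5. Of the Eln-/- libraries, 3 lay above every Eln+/+ library and all 5 above the Eln+/+ median of 64.1 CPM. The count of 3 depends on the TMM scaling. Per total count, Eln-/- replicate 4 (2940 of 28367714) lay below Eln+/+ replicate 2 (7219 of 63866346). The log2 fold change of Hes1 was 0.95 (SE 0.40), with an unadjusted p of 0.0381 and an adjusted p of 1.00 in edgeR, and Hes1 ranked 63 by p among the 15718 genes. It had the narrowest range of any gene in the set over the 19 alternatives, 0.73 to 1.10, with adjusted p from 0.347 to 1.00. Without Eln-/- replicate 1 it was 0.85, and without the 3 libraries of lowest gene number 0.99.

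Nrarp encodes a small ankyrin repeat protein that is switched on by Notch and dampens it (chromosome 2, 25180758 to 25183339, plus strand). It was at 36.4, 56.5, 29.4, 18.6 and 31.6 CPM in Eln-/- replicates 1 to 5, against 0, 19.7, 0.223, 2.57 and 12.4 CPM in Eln+/+ replicates 1 to 5. The counts behind the lowest Eln+/+ values were 0 in replicate 1, where a floor of 3 counts allows up to 0.198 CPM, and 11 in replicate 3, while every Eln-/- library had at least 256 counts. In Eln-/-, 4 libraries lay above every Eln+/+ library in CPM, and the fifth, replicate 4, lay just below Eln+/+ replicate 2. Both statements depend on the TMM scaling. Per total count, Eln-/- replicate 5 (838 of 31366586) also lay below Eln+/+ replicate 2 (1721 of 63866346). On that measure Eln-/- replicate 4 (256 of 28367714) lay below Eln+/+ replicate 5 (558 of 39646293) as well. The log2 fold change of Nrarp was 2.30 (SE 1.26, unadjusted p = 0.0934, edgeR adjusted p = 1.00). It stayed positive under each of the 19 alternatives, at 1.99 to 4.51 (3.18 without Eln+/+ replicate 2), and the adjusted p was 0.269 to 1.00. Exons of the antisense gene Gm38287 cover 79.4% of the exon bases of Nrarp, so part of the reads cannot be assigned to either gene without the strand, and the table gives Gm38287 itself 76 counts over all libraries.

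Heyl, a repressor of the Hey family that is prominent in vascular smooth muscle (chromosome 4, 123233556 to 123249875, plus strand), was at 281, 155, 122, 34.8 and 58.0 CPM in Eln-/- replicates 1 to 5, against 9.32, 117, 41.6, 140 and 57.1 CPM in Eln+/+ replicates 1 to 5. In Eln-/-, 2 libraries lay above every Eln+/+ library, and the lowest value of all was in Eln+/+ replicate 1, one of the 3 libraries of lowest gene number. Heyl had a log2 fold change of 0.84 (SE 0.73, edgeR adjusted p = 1.00), 0.34 without Eln-/- replicate 1 and 0.56 without Eln+/+ replicate 1.

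Hey1 and Hey2, the other repressors of the family, had nearly equal means in the genotypes. Hey1 (chromosome 3, 8663359 to 8667256, minus strand) was at 36.4, 55.0, 60.7, 10.8 and 87.5 CPM in Eln-/- replicates 1 to 5, against 35.3, 51.3, 20.0, 45.4 and 85.5 CPM in Eln+/+ replicates 1 to 5, a log2 fold change of 0.077 (SE 0.57). Hey2 (chromosome 10, 30832359 to 30842801, minus strand) was at 26.9, 28.7, 22.7, 3.78 and 19.8 CPM in Eln-/- replicates 1 to 5, against 13.0, 29.6, 26.4, 17.0 and 10.3 CPM in Eln+/+ replicates 1 to 5, a log2 fold change of 0.080 (SE 0.61). Their lowest values were both in Eln-/- replicate 4, and the edgeR adjusted p was 1.00 for each. With SEs of this size the data do not show that either gene was equal in the genotypes.

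**Figure D2:**
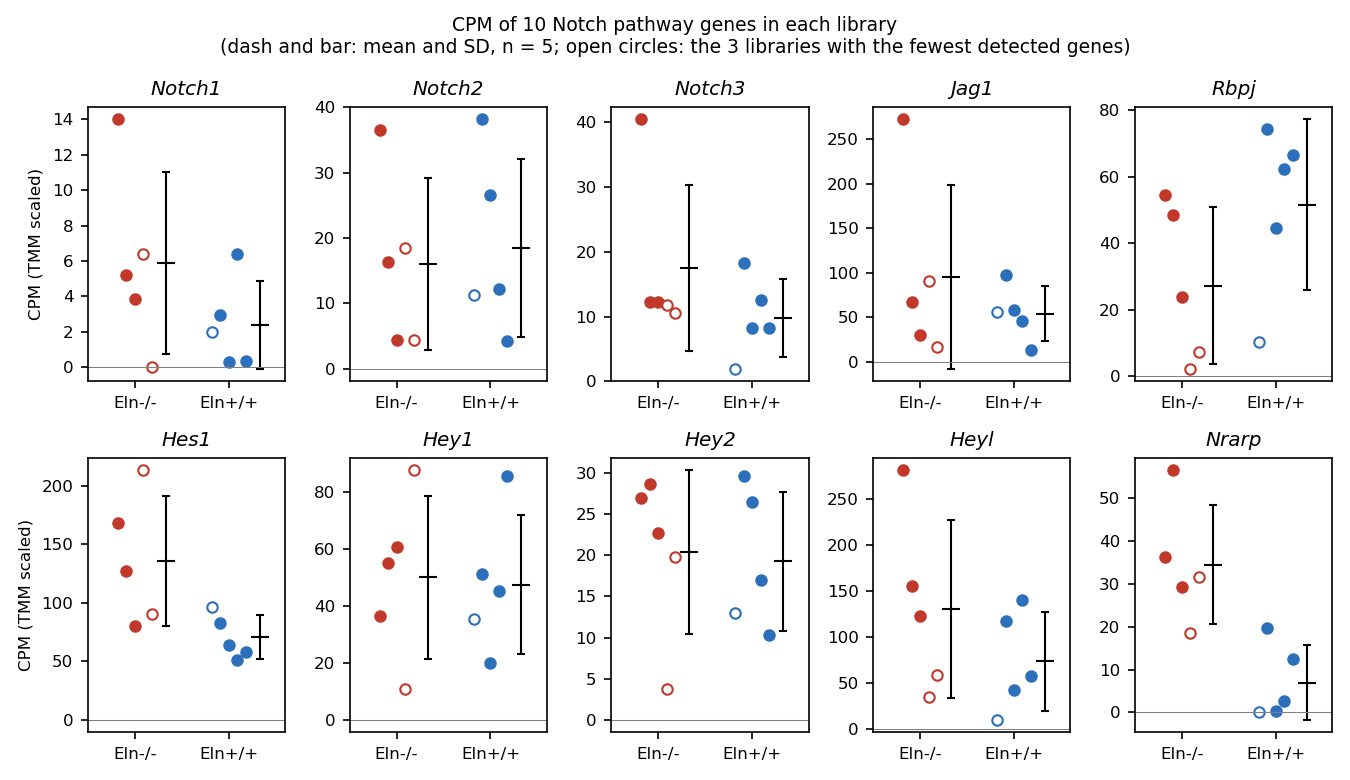
CPM of each of the 10 genes in every library, with Eln-/- in red left of Eln+/+ in blue, the mean and SD of 5 libraries beside the points, and open circles for the 3 libraries of lowest gene number. Hes1 and Nrarp lie higher in most Eln-/- libraries, Rbpj lower, and single high Eln-/- points (40.4 CPM for Notch3, 272 CPM for Jag1) stand above the rest.

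Rbpj binds DNA at sites with the core TGGGAA. RefSeq promoter windows on GRCm38.p6, from 250 bases before to 50 after the start site, were at hand for 7 of the 10 genes; Hes1, Hey1 and Heyl had none in the table. The core was searched on both strands and occurred in the windows of 2 of the 7 genes, Hey2 and Rbpj, and in 25.6% of all 32851 windows. Hey2 is shown as a target with the core, Nrarp as the target with the highest log2 fold change, and Rbpj as the gene with the lowest. Capitals mark the core, written TTCCCA where it lies on the opposite strand.
Hey2 (chr10:30842734-30843033, minus strand): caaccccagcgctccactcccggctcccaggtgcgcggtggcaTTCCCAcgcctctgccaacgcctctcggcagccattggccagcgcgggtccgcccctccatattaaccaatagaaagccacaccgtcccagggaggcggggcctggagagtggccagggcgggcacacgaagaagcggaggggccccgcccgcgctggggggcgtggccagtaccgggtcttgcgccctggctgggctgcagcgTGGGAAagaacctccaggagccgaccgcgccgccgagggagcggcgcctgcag
Nrarp (chr2:25180508-25180807, plus strand): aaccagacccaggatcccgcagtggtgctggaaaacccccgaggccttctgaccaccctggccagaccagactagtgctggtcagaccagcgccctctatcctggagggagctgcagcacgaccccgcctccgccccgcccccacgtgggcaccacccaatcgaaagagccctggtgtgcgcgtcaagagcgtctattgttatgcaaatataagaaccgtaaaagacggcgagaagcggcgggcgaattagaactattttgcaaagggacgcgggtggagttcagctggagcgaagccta
Rbpj (chr5:53590096-53590395, plus strand): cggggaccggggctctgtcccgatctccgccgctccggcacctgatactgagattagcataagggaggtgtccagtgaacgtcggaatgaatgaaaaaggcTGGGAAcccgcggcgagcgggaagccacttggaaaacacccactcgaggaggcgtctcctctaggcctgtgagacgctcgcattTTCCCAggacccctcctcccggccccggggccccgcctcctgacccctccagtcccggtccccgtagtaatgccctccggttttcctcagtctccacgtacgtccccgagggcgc
In Hey2 the matches begin at bases -207, on the opposite strand, and -3, as printed. In Rbpj they begin at -149, as printed, and at -65, on the opposite strand, and a second Rbpj window that overlaps this one repeats the match at -65. The windows of Nrarp, Jag1, Notch1, Notch2 and Notch3 did not hold these letters, which says nothing about binding elsewhere.

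Over the whole set, 0 of 10 genes passed the adjusted threshold of 0.05, as did 0 of the 15718 genes tested (0%). At an unadjusted p under 0.05 there was 1 of the 10, Hes1, against 0.515% of all genes in either direction and 0.369% with a positive fold change, the sign Hes1 had. DESeq2, limma-voom and limma-voom with sample quality weights called 0 of the 10 as well, where they called 0.0382%, 0.0127% and 0.0445% of all genes. In none of the 10 were the genotypes free of overlap, against 0.305% of all genes. The log2 fold change was positive for 8 of 10, where 51.5% of all genes had a positive value, and its median was 0.82 against 0.021 over all genes. Without Eln-/- replicate 1 there were 6 of 10 positive values, with a median of 0.21 (-0.13 over all genes), and without Eln+/+ replicate 1 also 6 of 10, with a median of 0.56. All 8 smooth muscle markers and all 10 immediate early genes had positive values too, with medians of 0.82 and 1.36, and none of them passed the threshold. Fibroblast markers were negative in 4 of 6 genes (median -0.81), pericyte markers in 4 of 5 (median -0.26) and erythroid markers in 5 of 5 (median -1.54), also with no call. The part of these cell types and states in the values of the Notch genes was not tested.

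**Figure D3:**
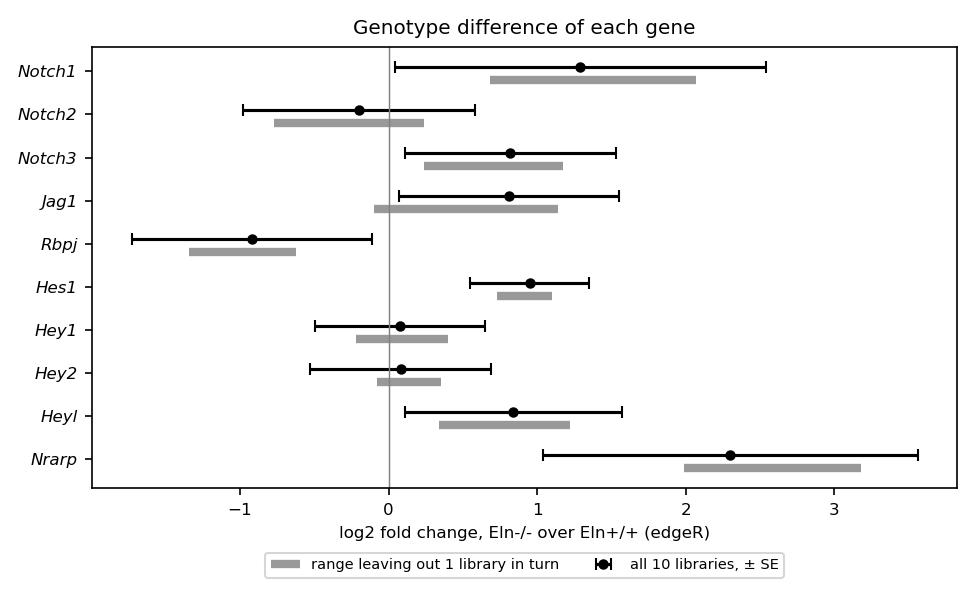
Log2 fold change of each gene, Eln-/- over Eln+/+, from edgeR with its SE (black) and the range when each of the 10 libraries was left out in turn (grey). The grey bars of Notch2, Jag1, Hey1 and Hey2 cross 0, while Hes1 stayed between 0.73 and 1.10 and Nrarp between 1.99 and 3.18.

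Single libraries stood high or low for several of the 10 genes at once. Eln-/- replicates 1 to 5 had a mean log2 CPM over the 10 genes of 5.89, 5.24, 4.58, 4.05 and 3.69, against 2.87, 5.2, 3.61, 4.52 and 3.87 in Eln+/+ replicates 1 to 5. Eln-/- replicate 1 held the highest value of 4 genes (Notch1, Notch3, Jag1 and Heyl) and was among the top 3 libraries for 8. Eln+/+ replicate 2 held the highest value of 3 (Notch2, Rbpj and Hey2). These libraries also had the most detected genes, 22951 and 21864, and the highest immediate early sums. Eln+/+ replicate 1, with the fewest detected genes, and Eln-/- replicate 4 each held the lowest value of 3 genes. The part of library complexity in these levels was not tested.

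**Figure D4:**
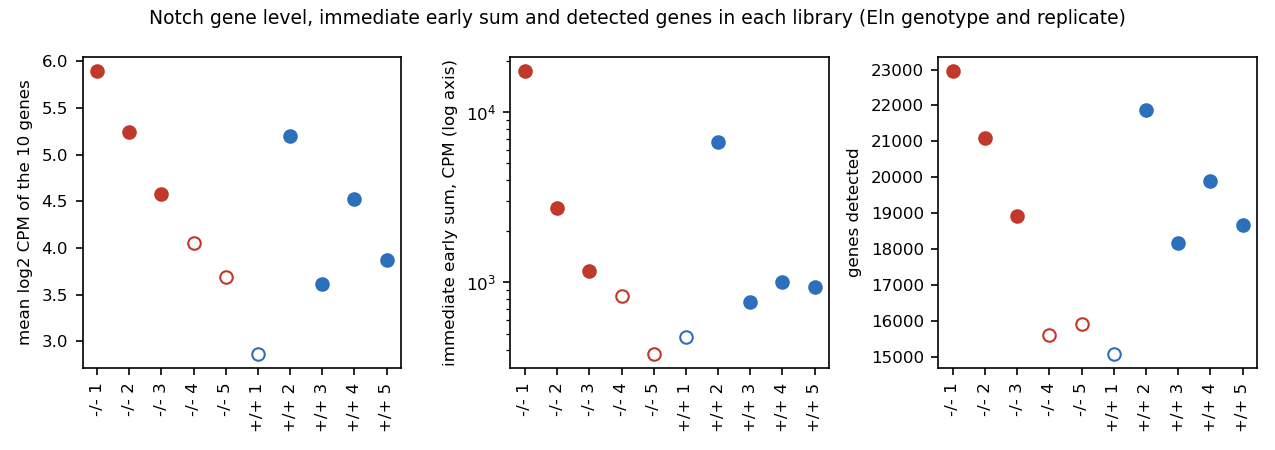
Mean log2 CPM of the 10 genes (left), summed CPM of 10 immediate early genes on a log axis (middle) and number of genes with at least 1 count (right) in each library, Eln-/- replicates left of Eln+/+ replicates. Eln-/- replicate 1 and Eln+/+ replicate 2 have the highest immediate early sums and the most detected genes, and Eln+/+ replicate 1 has the lowest mean level of the Notch genes, 2.87.

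Likeness between genes was described by how many of the 45 pairs of libraries 2 genes put in the same order. Among the 10 genes, Notch2 and Jag1 were the most alike, with 41 of 45 pairs, followed by Notch3 and Heyl with 38 and by Heyl and Nrarp with 35. Jag1 and Hey1 shared the order of 11 pairs, the fewest of all. Among the other genes that averaged log2 CPM 5 or more, the ones most like Notch3 were Hjurp, a chaperone of centromeric histone (44 of 45), Bclaf1, a protein of RNA processing (43), and Ltbp1, a matrix protein that binds latent TGF-beta (41, with 10 genes at 41 or more), where the median over 4287 genes was 20. Those most like Jag1 were Ppp1r12a, the targeting subunit of myosin phosphatase (42), and Rbm39 and Nop58, proteins of splicing and of nucleolar ribonucleoproteins (41 each, with 4 genes at 41 or more), with a median of 17 over 4286 genes. Those most like Hes1 were Ccn2, a matricellular protein, and Tln1, which links integrins to actin (39 each), and Rgs5, a regulator of G protein signalling in mural cells (38, with 7 genes at 38 or more), with a median of 20. Ties were broken by the average log2 CPM. All of these orders share the libraries' depth and complexity.

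Further genes of the pathway lay on both sides of equality. Of 68 such genes in 7 groups, 66 were in the table and 57 passed the filter on low counts. None of the 57 passed the threshold in either direction with edgeR, DESeq2 or limma-voom, and 0 had an unadjusted p under 0.05 in edgeR. Their log2 fold changes were positive for 30 and negative for 27, with a median of 0.066. The ligand genes Jag2, Dll3, Dll4 and Dlk2 did not pass the filter: Dll4, the Delta ligand of arterial endothelium, had 44, 0, 159, 0 and 0 counts in Eln-/- replicates 1 to 5, against 0, 0, 0, 264 and 0 counts for the same numbers of Eln+/+.

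Of the other receptors and ligands, Notch4, Dlk1 and Dll1 were tested (2 positive, median 1.94). Notch4, a receptor of endothelium, was at 1.81, 2.32, 1.81, 7.99 and 1.62 CPM in Eln-/- replicates 1 to 5, against 0, 0.654, 1.40, 1.55 and 0.401 CPM in Eln+/+ replicates 1 to 5. It was the only gene of the 57 whose genotypes did not overlap in CPM, at 43 to 152 counts in Eln-/- and 0 to 98 counts in Eln+/+ libraries, and it missed the threshold (log2 fold change 1.94, SE 1.15, edgeR adjusted p = 1.00), where 0.305% of all genes had no overlap. The gap was narrow, 1.62 CPM in Eln-/- replicate 5 against 1.55 CPM in Eln+/+ replicate 4, and rested on the TMM scaling. Per total count, 43 of 31366586 against 98 of 52279186, these libraries stood in the opposite order. The log2 fold change of Notch4 was 1.24 without Eln-/- replicate 4, 1.01 without the 3 libraries of lowest gene number and 1.40 with library size only. The endothelial marker sum was 36.2 CPM in Eln-/- replicate 4 and 87.8 CPM in Eln+/+ replicate 4, the libraries with the highest Notch4 value of each genotype, and its part in the Notch4 values was not tested. Dlk1, a Delta-like protein that is abundant in fetal tissue, was at 1003, 202, 166, 27.2 and 18.2 CPM in Eln-/- replicates 1 to 5, against 35.6, 605, 677, 578 and 253 CPM for Eln+/+ replicates 1 to 5 (log2 fold change -0.60, SE 1.03, and -2.06 without Eln-/- replicate 1).

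Genes that mature, cleave or route receptors and ligands gave no call. In the group for receptor cleavage (10 tested, 6 positive, median 0.044), the gamma-secretase subunit Aph1a had the smallest p, at 57.9 ± 20.4 CPM in Eln-/-, against 31.9 ± 9.82 CPM for Eln+/+ (log2 fold change 0.86, SE 0.43, unadjusted p = 0.0713, edgeR adjusted p = 1.00), with 4 Eln-/- libraries above every Eln+/+ library. The count of 4 depends on the TMM scaling. Per total count, Eln-/- replicate 4 (1200 of 28367714) lay below Eln+/+ replicate 5 (1723 of 39646293). Exons of Aph1a share 12.9% of their bases with Car14. The subunit Psenen, with the highest mean over the 10 libraries in that group, averaged 90.2 ± 87.1 CPM in Eln-/-, against 84.8 ± 77.9 CPM for Eln+/+, and shares 9.33% of its exon bases with U2af1l4 and 8.71% with Gm49396. That mean rests on 239 CPM in Eln-/- replicate 4 and 224 CPM in Eln+/+ replicate 1, both among the 3 libraries of lowest gene number. Without the 3, Psenen averaged 39.0 CPM in Eln-/-, against 50.2 CPM for Eln+/+, below the subunit Ncstn, named after its values were seen, at 104 CPM in Eln-/-, against 107 CPM for Eln+/+. In receptor glycosylation (4 tested, 2 positive, median 0.0064) the glucosyltransferase Poglut1 averaged 54.2 ± 33.7 CPM in Eln-/-, against 79.3 ± 49.5 CPM for Eln+/+, and the Fringe enzyme Lfng 15.7 ± 9.25 CPM in Eln-/-, against 11.5 ± 4.79 CPM for Eln+/+. In ligand handling (6 tested, 2 positive, median -0.20) the ubiquitin ligase Mib1, which drives ligand endocytosis, averaged 10.5 ± 11.1 CPM in Eln-/-, against 13.1 ± 11.4 CPM for Eln+/+, and the endocytic adaptor Epn2 14.3 ± 6.06 CPM in Eln-/-, against 8.87 ± 8.83 CPM for Eln+/+.

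Nuclear cofactors (13 tested, 9 positive) had a median log2 fold change of 0.31, genes that restrain or turn over Notch (9 tested, 5 positive) one of 0.10, and other reported targets (12 tested, 4 positive) one of -0.24. The coactivator Maml2 averaged 17.1 ± 24.1 CPM in Eln-/-, against 6.76 ± 8.51 CPM for Eln+/+ (log2 fold change of Maml2 1.34, -0.077 without Eln-/- replicate 1 and 2.46 without Eln+/+ replicate 2). The deacetylase Hdac1 averaged 47.1 ± 26.6 CPM in Eln-/-, against 56.3 ± 31.5 CPM for Eln+/+. Among genes that restrain Notch, the ubiquitin ligase Itch averaged 25.0 ± 22.7 CPM in Eln-/-, against 33.9 ± 20.0 CPM for Eln+/+, and the endocytic inhibitor Numb 22.4 ± 19.1 CPM in Eln-/-, against 17.5 ± 6.88 CPM for Eln+/+. Among the other targets the arterial ephrin ligand Efnb2 had the smallest p, at 27.6 ± 24.9 CPM in Eln-/-, against 9.60 ± 13.4 CPM for Eln+/+, a log2 fold change of 1.52 (SE 1.09, edgeR adjusted p = 1.00), which was 0.78 without Eln-/- replicate 1 and 2.89 without Eln+/+ replicate 2. Id3, an inhibitor of helix-loop-helix factors and the most abundant of that group, averaged 1328 ± 637 CPM in Eln-/-, against 1458 ± 980 CPM for Eln+/+.

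**Figure D5:**
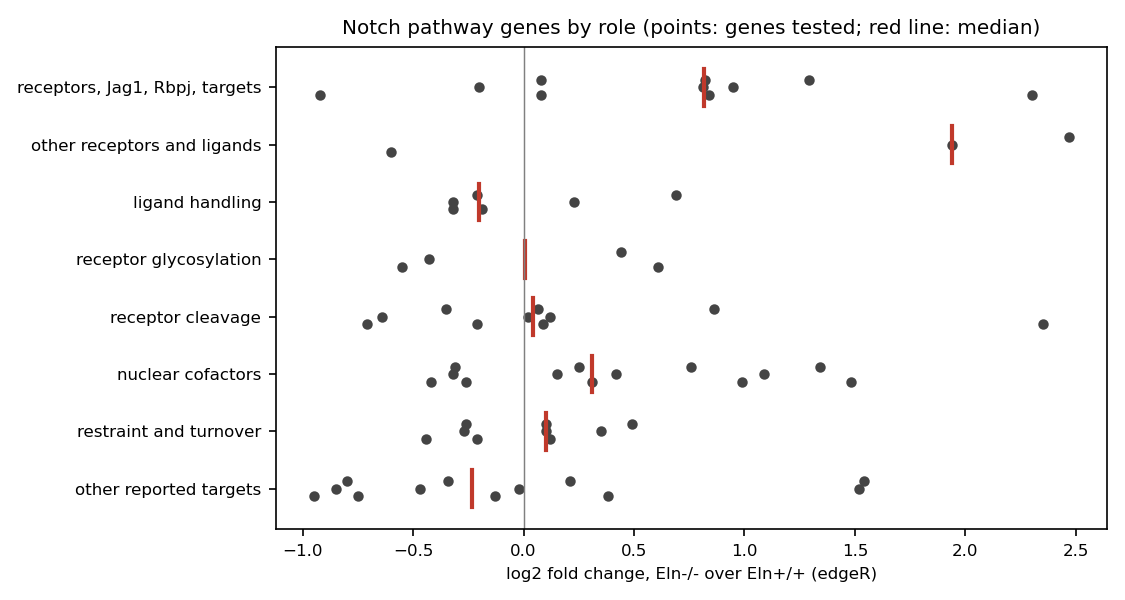
Log2 fold change, Eln-/- over Eln+/+ (edgeR), of each gene tested, by role in the pathway, with the median of each group in red. The top row holds the receptors Notch1 to Notch3, Jag1, Rbpj and the targets, with a median of 0.82, and the other 7 groups, 57 genes in all, lie on both sides of 0.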

How the data were processed

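The authors deposited 1 table of estimated counts per gene and library, not scaled for library size. The submitters' processing notes name STAR, DESeq2 and mm10. Which program counted the reads, with which annotation and strand setting, is not given in the sources used here. In each library 23.5% to 48.8% of the deposited estimated counts were not whole at a tolerance of 1e-06, and they were rounded before testing. Gene spans equalled those of GENCODE mouse release 21 for 27046 genes (96.0%), once the table's last position, 1 base past the gene's end, was allowed for. Exon lengths and overlaps came from that release. An overlap between exons of 2 genes is named beside each of the 10 genes that has one, and beside Aph1a and Psenen. Other named pathway genes with shared exon bases were Dll1 (20.5%, with A930024N18Rik), Dll4 (5.56%, Gm14207) and Ncstn (4.91%, Copa). Numb (4.24%, Gm46367), Dlk2 (2.41%, Abcc10) and Maml2 (1.53%, Gm22643) had them too.

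Each column name equals the description label of 1 sample. Genes were kept by filterByExpr (15718) and scaled with TMM factors, and Eln-/- was compared with Eln+/+ by edgeR's quasi-likelihood test, two-sided, on genotype alone, with Benjamini-Hochberg adjustment over all genes tested and a threshold of 0.05. The SE was the log2 fold change divided by the square root of F. CPM used the TMM factors, which ranged from 0.486 to 1.37, and log2 CPM a prior count of 2. How many libraries of one genotype lay above the other was judged on these CPM and can change with the scaling. The biological coefficient of variation was 1.16. The procedure was tested on simulated data. The share of changed genes that it finds at the observed spread is not given here. The floor given for Nrarp covers counting error only. The software was edgeR 4.0.16, DESeq2 1.42.0 and limma 3.58.1 under R 4.3.3.

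The genes and lists were chosen with earlier results of these data known. Named genes were the 10, the gene of highest mean CPM and that of smallest p in each pathway group, and the first 3 genes in likeness to Notch3, Jag1 and Hes1, with ties broken by average log2 CPM.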

Additional observations from a re-analysis of the deposited data

Results flagged for a closer look

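For each of the 10 genes the libraries of each genotype were checked for a single value far from the rest, 20 groups of 5 in all, and 2 stood out. Chance marks about 1 in 20 where values are normally distributed, and these were CPM on the linear scale. On a log scale the gap below a highest value takes a smaller share of the range, so a flag can depend on the scale. Notch3 was at 40.4 CPM in Eln-/- replicate 1, where the nearest other Eln-/- library was at 12.3 CPM, a gap of 0.944 of the group's range. Jag1 was at 272 CPM in the same library, where the nearest other was at 90.6 CPM, a gap of 0.71 of the range and barely past the critical value. That library also had the highest immediate early sum, 17390 CPM, and the most detected genes, 22951.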

How the results depend on the processing

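Under each of the 19 alternatives 0 of the 10 genes and 0 of the 57 other pathway genes passed. Over all genes, 0 passed as reported, 6 with DESeq2, 2 with limma-voom, 7 with limma-voom and sample quality weights, 0 to 1 when leaving out 1 library (the 1 without Eln-/- replicate 1) and 1 without Eln-/- replicate 1 and Eln+/+ replicate 2 together, a setting chosen after seeing the data. Signs of Notch1, Notch3, Rbpj, Hes1, Heyl and Nrarp held under all 19. The median log2 fold change of the 10 genes was 0.21 to 1.04 when leaving out 1 library and 0.41 to 0.94 under the other alternatives. When leaving out 1 library, Notch2 ranged from -0.77 to 0.24, Jag1 from -0.10 to 1.14, Hey1 from -0.22 to 0.40, Hey2 from -0.075 to 0.35, Mib1 from -0.94 to 0.35, Psenen from -0.67 to 0.87, Hdac1 from -0.54 to 0.023, Maml2 from -0.077 to 2.46, Numb from -0.30 to 0.57 and Id3 from -0.45 to 0.39. With sample quality weights Mib1 was at 0.30, Lfng -0.27, Psenen -0.22 and Numb -0.67. Leaving out the 3 least complex libraries (fewest genes detected), Mib1 was at 0.39, Lfng -0.20, Psenen -0.34 and Numb -0.37. With library size only Psenen was at -0.10 and Numb -0.11, and with limma-voom -0.075 and -0.20. The cause was not tested. With the replicate number as a block Dlk1 was at -2.10 (-0.60 as reported), Hey1 was at -0.031 and Hey2 at -0.041, 6 of the 10 genes were positive, and 0 genes passed; same-numbered libraries had correlations of deviations from -0.556 to 0.510, and only number 2 correlated best with its own number, so the numbers were not taken as pairs. Of the 9 neighbours in level, 3 differed as reported, 3 with a prior count of 0.5, 2 with the longest transcript as length, 2 to 3 when leaving out 1 library and 0 without the 3 libraries, where 7 libraries allow no p under 0.0156. Low counts limit Notch1, Notch4 and Nrarp in Eln+/+.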
